A study of Mus musculus with 6 samples.

Results

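The genes described here are the 10 enzymes of bile acid synthesis Cyp7a1, Cyp8b1, Cyp27a1, Cyp7b1, Cyp39a1, Baat, Slc27a5, Hsd3b7, Akr1d1 and Amacr, chosen by symbol from the 17975 genes of the deposited table. All 10 had enough reads to be tested, among 13805 tested genes. RNA was sequenced from whole liver of 3 Hom mice and 3 WT mice, 1 liver per mouse, with no treatment named for these livers. Hom mice carry floxed Nek7 on both chromosomes together with Cre driven by the albumin promoter (NEK7 fl/fl, Alb-Cre), so that Nek7, a kinase of the NIMA family, is deleted in hepatocytes; both parent lines were of B6 background. WT mice are labelled wild type, and whether they carry a floxed allele, as well as the age and sex of each sequenced mouse, is not given in the sources used here. The livers held between 19349418 and 19730236 estimated counts each, so depth differed little between groups. Nek7 was at 62.9, 69.1 and 63.7 CPM (counts relative to library size, scaled by TMM factors) in the WT livers and at 14.5, 18.1 and 16.7 in the Hom livers, and each Hom liver was thus below each WT liver.

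Bile acids are made from cholesterol in hepatocytes and carry cholesterol out of the body while they emulsify dietary fat. In the classical route CYP7A1 hydroxylates cholesterol in the endoplasmic reticulum as the rate-limiting step, HSD3B7 and AKR1D1 alter the sterol ring, and CYP8B1 adds the hydroxyl group that makes cholic acid. In the alternative route the mitochondrial enzyme CYP27A1 first oxidises the side chain, after which CYP7B1 hydroxylates the oxysterol; CYP39A1 does so for another oxysterol. AMACR turns the side chain into the form that peroxisomes shorten, SLC27A5 activates bile acids with coenzyme A, and BAAT joins them to taurine or glycine. Bile acids restrain their own synthesis through the nuclear receptor FXR (Nr1h4) and its target SHP (Nr0b2), and through the receptor FGFR4 with its partner beta-klotho (Klb).

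To show the start-site sequences of genes that moved by different amounts, the 250 bases before the RefSeq transcription start are printed for the 4 of the 10 genes matched in the promoter table (GRCm38.p6). They are Cyp8b1 (chr9:121916306-121916555, minus strand), Cyp27a1 (chr1:74713285-74713534, plus strand), Hsd3b7 (chr7:127800359-127800608, plus strand) and Akr1d1 (chr6:37529923-37530172, plus strand). The first 3 fell in Hom livers and the last did not pass the test. Capitals mark matches, on either strand, to AGGTCA (a nuclear receptor half-site) and CAAGGTCA (the same half-site with an extension, which contains AGGTCA). Also marked were CAAAGTCCA (part of a site of the HNF4 type, too short for a full repeat of half-sites) and TATAAA (the box bound by TBP).
Cyp8b1: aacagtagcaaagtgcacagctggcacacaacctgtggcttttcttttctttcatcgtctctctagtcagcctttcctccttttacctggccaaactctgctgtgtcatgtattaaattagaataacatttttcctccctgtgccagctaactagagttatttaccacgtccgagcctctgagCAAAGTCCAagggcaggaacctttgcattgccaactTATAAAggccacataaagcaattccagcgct
Cyp27a1: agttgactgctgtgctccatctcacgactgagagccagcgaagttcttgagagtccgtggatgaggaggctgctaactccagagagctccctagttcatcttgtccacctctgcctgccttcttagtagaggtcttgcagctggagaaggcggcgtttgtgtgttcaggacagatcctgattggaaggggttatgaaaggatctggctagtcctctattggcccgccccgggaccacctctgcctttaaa
Hsd3b7: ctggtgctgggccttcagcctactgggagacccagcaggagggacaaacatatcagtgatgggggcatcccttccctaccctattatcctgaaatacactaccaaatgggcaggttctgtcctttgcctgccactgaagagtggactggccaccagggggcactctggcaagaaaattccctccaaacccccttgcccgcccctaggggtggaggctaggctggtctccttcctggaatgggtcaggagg
Akr1d1: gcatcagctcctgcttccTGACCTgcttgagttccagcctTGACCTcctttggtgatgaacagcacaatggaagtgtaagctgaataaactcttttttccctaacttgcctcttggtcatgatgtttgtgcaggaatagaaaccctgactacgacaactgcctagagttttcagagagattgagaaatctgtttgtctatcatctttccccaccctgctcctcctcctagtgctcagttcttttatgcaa
Cyp8b1 held CAAAGTCCA from 67 to 59 bases and TATAAA from 31 to 26 bases before the start, and Akr1d1 held AGGTCA on the minus strand at 232 to 227 and 210 to 205 bases before it. In Cyp27a1 and Hsd3b7 none of these letters were found in this window. Of 27025 promoters of the same length, 0.38% held CAAAGTCCA, 12.97% TATAAA, 13.84% AGGTCA and 1.31% CAAGGTCA.

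The 10 genes did not move together in Hom livers. Cyp7a1 rose to 4.35 times the WT mean, while Cyp8b1 fell to 4.32% and Cyp7b1 to 6.58% of it. Hsd3b7, Cyp27a1 and Slc27a5 fell to between 37.8% and 47.5%, and Baat and Amacr to 70.1% and 70.9%. Akr1d1 and Cyp39a1 did not pass the test. In all, 7 of the 10 genes were lower and 1 was higher (edgeR quasi-likelihood F test, Benjamini-Hochberg threshold 0.05), so 8 of 10 changed, where 20.1% of all tested genes were lower, 21.5% were higher and 41.7% were called in either direction. The median log2 fold change was −0.79 over the 10 genes and −0.0018 over all tested genes. Without overlap between groups, 7 of the 10 genes lay lower in all Hom livers, against 27.0% of tested genes, and 1 lay higher, against 28.7%. With 3 mice against 3, an exact two-sided permutation test of a single gene cannot give a p below 0.1, which was its value for each of these 8 genes.

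**Figure D1:**
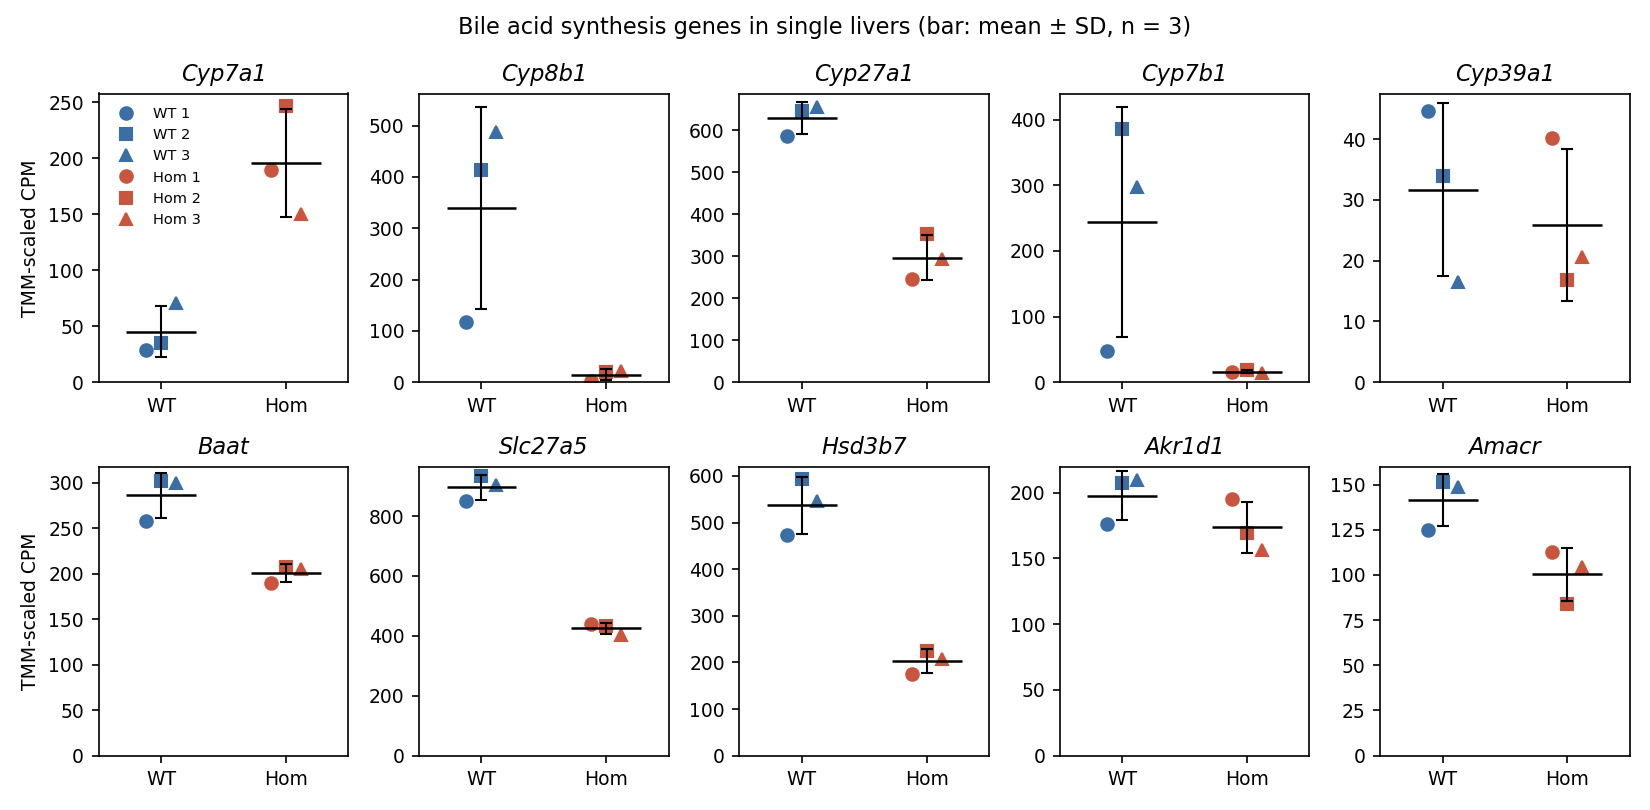
TMM-scaled CPM (vertical axis, from 0) of the 10 genes in 3 WT and 3 Hom livers; symbols give the replicate, and bars the mean ± SD. Cyp7a1 is higher in each Hom liver, Cyp8b1 and Cyp7b1 are close to the axis in all Hom livers, and WT replicate 1 is the lowest WT liver for both of them.

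Cyp7a1 (NCBI Gene 13122; chromosome 4, 6265612 to 6275633, minus strand, in GRCm38), the rate-limiting enzyme of the classical route, was at 28.6, 35.2 and 70.8 CPM in WT replicates 1, 2 and 3 and at 189, 246 and 151 CPM in Hom replicates 1, 2 and 3. The lowest Hom liver was above the highest WT liver. Means were 44.9 ± 22.7 CPM (SD, n = 3) in WT and 195 ± 48.3 CPM (SD, n = 3) in Hom livers. On the log2 scale the change was 2.12 (SE 0.36, edgeR-adjusted p = 0.00457). Of all tested genes, 95.2% had a lower log2 fold change.

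Cyp8b1 (NCBI Gene 13124; chromosome 9, 121914356 to 121916305, minus strand), the enzyme that decides between cholic acid and other primary bile acids, was at 117, 413 and 488 CPM in the WT livers. It was at 2.43, 20.6 and 20.9 CPM in the Hom livers, and the 52 counts of Hom replicate 1 stood well below the 500 and 486 counts of Hom replicates 2 and 3. Groups did not overlap although each varied widely, with 339 ± 196 CPM (SD, n = 3) in WT and 14.7 ± 10.6 CPM (SD, n = 3) in Hom livers. The log2 fold change was −4.53 (SE 0.88, edgeR-adjusted p = 0.00749), and 0.203% of tested genes had a lower one. Without Hom replicate 1 it was −4.03 (adjusted p = 0.00708).

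The ring enzymes of the same route differed from each other. Hsd3b7 (NCBI Gene 101502; chromosome 7, 127800604 to 127803802, plus strand), which oxidises the sterol ring after CYP7A1, was at 472, 593 and 546 CPM in WT and at 175, 226 and 208 CPM in Hom livers. All 3 Hom livers lay far below the lowest WT liver, and the log2 fold change was −1.40 (SE 0.14, edgeR-adjusted p = 0.000795). Hsd3b7 overlaps 9430064I24Rik on the opposite strand and Gm49388 on its own strand in GENCODE M21, and without a stated strand setting reads of such genes cannot be told apart. Akr1d1 (NCBI Gene 208665; chromosome 6, 37530173 to 37568815, plus strand), the reductase that follows HSD3B7, was at 176, 207 and 210 CPM in WT and at 195, 169 and 157 CPM in Hom livers. The groups overlapped, with a log2 fold change of −0.19 (95% interval −0.47 to 0.096, edgeR-adjusted p = 0.246).

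In the alternative route, Cyp27a1 and Cyp7b1 fell. Cyp27a1 (NCBI Gene 104086; chromosome 1, 74713574 to 74737892, plus strand), the mitochondrial side-chain enzyme that serves both routes, was at 586, 645 and 655 CPM in WT and at 245, 352 and 292 CPM in Hom livers. The groups were well apart, with a log2 fold change of −1.08 (SE 0.15, edgeR-adjusted p = 0.00241). Cyp7b1 (NCBI Gene 13123; chromosome 3, 18071950 to 18243338, minus strand), the oxysterol hydroxylase, was at 48.1, 386 and 298 CPM in WT and at 15.8, 18.0 and 14.5 CPM in Hom livers. The Hom livers lay close together, while WT replicate 1 was far below the other WT livers and still above all Hom livers. The log2 fold change was −3.92 (SE 0.71, edgeR-adjusted p = 0.00569), the lower bound of its 95% interval being −5.60 and the upper bound −2.25. Cyp39a1 (NCBI Gene 56050; chromosome 17, 43667425 to 43751431, plus strand), the least abundant oxysterol hydroxylase in WT livers, was at 44.6, 34.0 and 16.5 CPM in WT and at 40.1, 16.8 and 20.6 CPM in Hom livers. It spread as widely within groups as between them (log2 fold change −0.30, 95% interval −1.32 to 0.72, edgeR-adjusted p = 0.606). GENCODE M21 places a predicted gene on the same strand within the bounds of Cyp7b1 (Gm23686), of Cyp39a1 (Gm25783) and of Akr1d1 (Gm7463).

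Of Slc27a5, Baat and Amacr, which finish and conjugate bile acids, Slc27a5 moved most. Slc27a5 (NCBI Gene 26459; chromosome 7, 12988346 to 12998192, minus strand), the bile acid coenzyme A ligase, was at 852, 933 and 903 CPM in WT and at 438, 434 and 404 CPM in Hom livers. Spread within each group was small beside this difference, and the log2 fold change was −1.07 (SE 0.11, edgeR-adjusted p = 0.000862). Baat (NCBI Gene 12012; chromosome 4, 49489422 to 49506557, minus strand), the amino acid transferase that comes next, was at 258, 302 and 300 CPM in WT and at 190, 207 and 205 CPM in Hom livers. Its groups did not overlap, with a log2 fold change of −0.51 (SE 0.10, edgeR-adjusted p = 0.00828). Amacr (NCBI Gene 17117; chromosome 15, 10981756 to 10996626, plus strand), the racemase of the side chain, was at 125, 151 and 149 CPM in WT and at 112, 84.0 and 105 CPM in Hom livers. The highest Hom liver was near the lowest WT liver, and the log2 fold change was −0.50 (SE 0.13, edgeR-adjusted p = 0.0249). Amacr passed the test least clearly of the 7 lower genes, and without WT replicate 2 or 3, or without Hom replicate 2 or 3, its adjusted p was 0.0609 to 0.0801.

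The order of the 10 genes by length-scaled level also changed, as the plot of TPM by gene shows. In WT livers Slc27a5 was highest at 565 ± 39.0 TPM (SD, n = 3), followed by Cyp27a1 at 478 ± 25.3, Hsd3b7 at 434 ± 15.9 and Cyp8b1 at 247 ± 130. The ranges of the WT livers overlapped between the neighbours Cyp8b1 and Baat (216 ± 4.68 TPM), Baat and Cyp7b1 (157 ± 108), Cyp7b1 and Amacr (140 ± 1.06), and Cyp7a1 (15.3 ± 6.84) and Cyp39a1 (15.3 ± 8.24); the other neighbours in that order did not overlap. Amacr and Akr1d1 (110 ± 1.62 TPM) varied least among WT livers. In Hom livers Slc27a5, Cyp27a1 and Hsd3b7 remained the highest in mean level, at 413 ± 28.9, 350 ± 86.3 and 256 ± 49.6 TPM, with overlapping ranges from each to the next. Cyp7a1 moved from rank 9 to rank 7 with 105 ± 30.6 TPM. Cyp8b1 moved from rank 4 to rank 9 with a mean of 17.7 TPM (2.60 to 25.4) and Cyp7b1 from rank 6 to rank 10 with 16.9 ± 2.65 TPM, both overlapping Cyp39a1 or each other. All 10 genes together summed to 2196, 2479 and 2458 TPM in WT and to 1511, 1925 and 1703 TPM in Hom livers. Cyp7a1 made up 0.462% to 0.946% of that sum in WT and 4.85% to 7.28% in Hom livers.

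**Figure D2:**
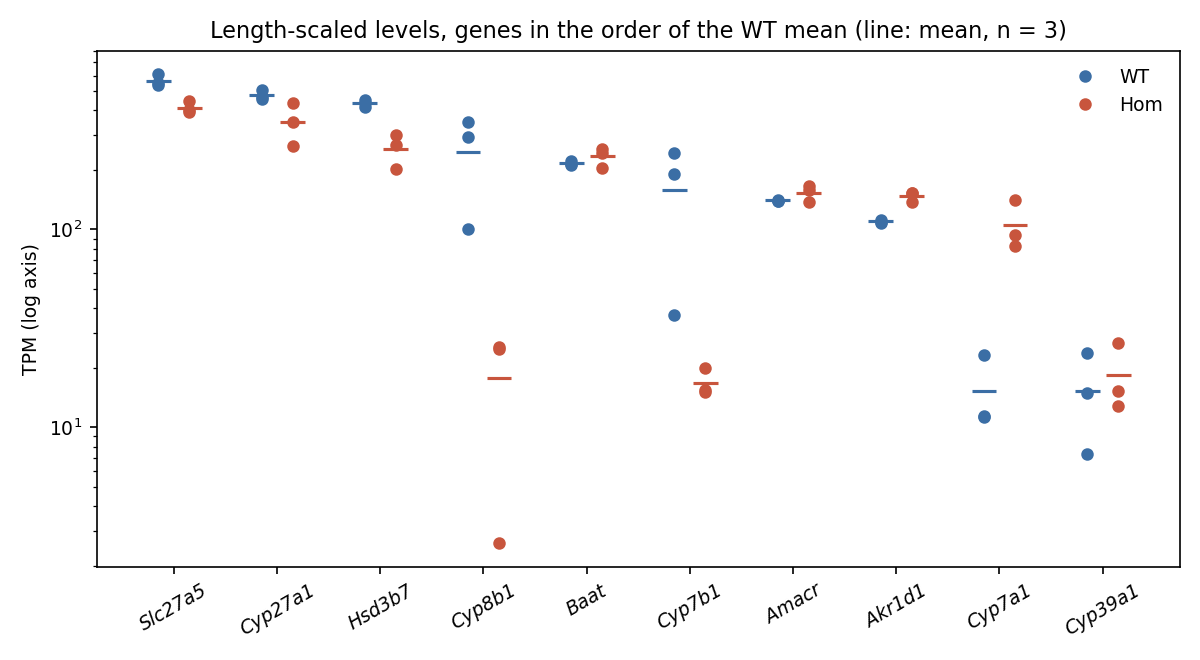
Deposited TPM (log axis) of the 10 genes in each liver, ordered by the WT mean; points are livers and lines are means of 3. Slc27a5 is highest in both groups, Cyp8b1 and Cyp7b1 drop to the lowest ranks in Hom livers, and Cyp7a1 climbs from 15.3 to 105 TPM.

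Since TPM is not corrected for library composition, a level can differ in direction from the TMM-scaled value. TPM means of Baat, Akr1d1, Amacr and Cyp39a1 were higher in Hom livers. They were 235, 148, 154 and 18.3 TPM there and 216, 110, 140 and 15.3 TPM in WT livers. For Akr1d1 the TPM ranges did not overlap (137 to 153 in Hom and 108 to 112 in WT livers), while those of the other genes named here did. TMM factors were 0.81 to 0.92 in WT and 1.09 to 1.23 in Hom livers. With library size alone the median log2 fold change of all tested genes was 0.45, and 642 genes were lower and 6574 higher, so that 91.1% of calls were higher. That share was 51.7% under TMM scaling and 62.8% when upper quartiles set the scale. With library size alone 5 of the 10 genes were lower and Cyp7a1 was higher, with log2 fold changes of −0.05 for Baat (adjusted p = 0.738), −0.04 for Amacr (0.758), 0.27 for Akr1d1 (0.0554) and 0.11 for Cyp39a1 (0.832), all from edgeR. Cyp7a1 (2.60), Cyp8b1 (−4.00), Cyp7b1 (−3.42), Hsd3b7 (−0.93), Slc27a5 (−0.62) and Cyp27a1 (−0.61) passed under both scalings.

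In liver most of the 10 genes are expressed by hepatocytes, and in whole liver RNA fewer hepatocytes and less RNA per hepatocyte cannot be told apart. Of 17 tested hepatocyte markers, 10 were lower and none was higher (median log2 fold change −0.58; 4 lower and 1 higher with library size alone), and their summed level was 165857 to 199310 CPM in WT and 89032 to 132229 CPM in Hom livers. Scaled instead by the mean level of these markers, Cyp7a1 had a log2 fold change of 2.68 (adjusted p = 0.000599), Cyp8b1 of −3.89 (0.0035), Cyp7b1 of −3.35 (0.00194), Hsd3b7 of −0.82 (0.0123) and Slc27a5 of −0.51 (0.039), from edgeR. Relative to the markers, Cyp27a1 was at −0.49 (adjusted p = 0.103), Baat at 0.06 (0.794) and Amacr at 0.05 (0.782), so that 4 of the 10 genes were lower and 1 higher. That scaling put the median of all genes at 0.56, with 407 genes lower and 6934 higher. Cholangiocyte markers were higher for 9 of 10 genes, with a summed level of 71.8 to 105 CPM in WT and 682 to 918 CPM in Hom livers. Stellate cell markers were higher for 4 and lower for 1 of 8 (168 to 181 against 396 to 494 CPM), Kupffer cell markers lower for 2 of 7 (173 to 465 against 151 to 232 CPM) and endothelial markers lower for 3 of 6 (146 to 209 against 89.8 to 99.8 CPM). Of all tested genes 20.1% were lower and 21.5% higher, and the 2 of 7 Kupffer cell markers lie near that share of lower genes. Leaving out 1 liver at a time gave 5 (without Hom replicate 3) to 11 lower hepatocyte markers. Without WT replicate 1, Kupffer cell markers had 1 lower and 2 higher genes and their median moved from −0.91 to −0.22, and with library size alone 1 was lower and 1 higher. Their lower count was also 1 without Hom replicate 1 or Hom replicate 3. No marker of these lists was at 0 in all livers, and the part of cell composition in the changes of the 10 genes was not tested.

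**Figure D3:**
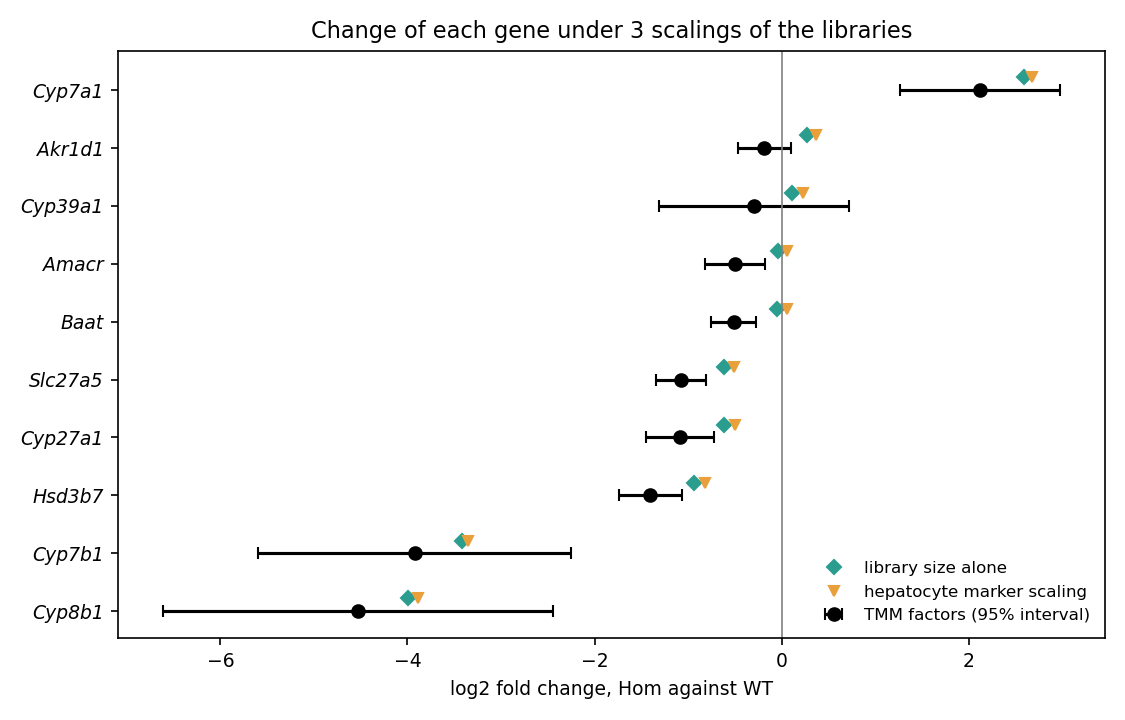
Log2 fold change of each gene, Hom against WT (horizontal axis), with TMM factors and their 95% interval, with library size alone, and relative to 17 hepatocyte markers. Cyp7a1 is positive and Cyp8b1 and Cyp7b1 are under −3 in all 3, while Baat, Amacr, Akr1d1 and Cyp39a1 are near 0 or change sign.

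A ratio between 2 genes of the same liver does not depend on how libraries are scaled, and 6 such ratios of rounded counts were compared. The log2 ratio of Cyp7b1 to Cyp7a1, the hydroxylases of the alternative and the classical route, was 0.75, 3.46 and 2.07 in WT and −3.58, −3.78 and −3.38 in Hom livers. Thus Cyp7b1 had more counts than Cyp7a1 in each WT liver and fewer in each Hom liver, a difference of −5.67 between the means. For Cyp8b1 to Cyp7a1 the ratio was 2.03, 3.55 and 2.79 in WT and −6.28, −3.58 and −2.85 in Hom livers, a difference of −7.03 and likewise a change of sign. Cyp27a1 stayed above Cyp7a1 in counts in all livers, by 3.92 ± 0.62 (SD, n = 3) in WT and 0.62 ± 0.31 (SD, n = 3) in Hom livers. Within the alternative route, Cyp7b1 to Cyp27a1 went from −1.83 ± 1.55 in WT to −4.20 ± 0.21 in Hom livers (SD, n = 3), with WT replicate 1 (−3.61) close to the Hom livers (−3.96 or lower). Cyp39a1 to Cyp7b1 was −2.60 ± 2.18 in WT and 0.58 ± 0.73 in Hom livers (SD, n = 3), and WT replicate 1 at −0.11 nearly met Hom replicate 2 at −0.099. The smallest change was that of Slc27a5 to Baat, the successive steps of conjugation, which was 1.65 ± 0.068 in WT and 1.08 ± 0.12 in Hom livers (SD, n = 3). None of the 6 ratios overlapped between groups. The exact two-sided permutation p was 0.1 for each, the smallest possible, and 0.1 after Benjamini-Hochberg adjustment over the 6. For the ratios to Cyp7a1 this was fixed beforehand, because Cyp7a1 lay higher and the other gene lower in all Hom livers. The pairs were chosen with earlier results known, and no share over other gene pairs was computed, so the lack of overlap adds no separate evidence.

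**Figure D4:**
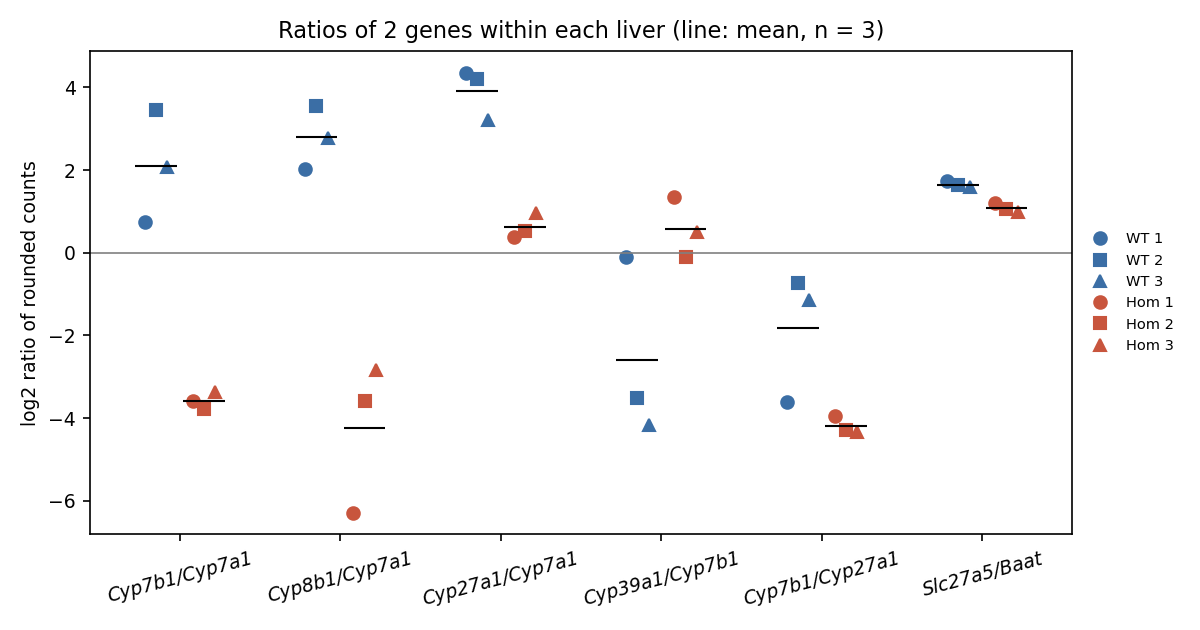
Log2 ratio of the rounded counts of 2 genes within each liver (vertical axis), for 6 pairs, with the mean of 3 livers per group as a line. Ratios of Cyp7b1 and Cyp8b1 to Cyp7a1 lie above 0 in all WT livers and below 0 in all Hom livers; WT replicate 1 lies nearest to the Hom livers in the pairs with Cyp7b1.

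Cyp7b1 is known to be higher in livers of male mice, and 2 livers stood apart. Hom replicate 1 did so in Y-linked and in sex-biased liver genes, and WT replicate 1 in sex-biased liver genes. The Y-linked gene Ddx3y had 751, 774 and 630 counts in WT livers and 0, 1125 and 1031 counts in Hom livers. Hom replicate 1 thus stood alone. None of 4 Y-linked genes tested passed between groups, but a group test does not show a difference of 1 liver. Among liver genes known to be male-biased, Selenbp2 had 510 counts in WT replicate 1 against 19523 and 16249 in the other WT livers. The female-biased Cyp2b9 had 1881 counts in WT replicate 1 against 17 and 8. In Hom replicate 1 the male-biased Cyp4a12a had 6 counts, against 781 and 577 in the other Hom livers. Cyp2b9 had 90 counts in Hom replicate 1 against 3 and 6, and the female-biased Cyp3a41a 161 against 0 and 7. Sex of the mice is not given, and its part in the group differences was not tested. Cyp7b1 with 862 counts in WT replicate 1, against 6025 and 4849, and Cyp39a1 with 798, against 530 and 268, were at opposite ends of the WT livers in this replicate. Over the list of 6 male-biased genes 4 were lower in Hom livers (summed level 2396 to 12808 CPM in WT and 605 to 8130 CPM in Hom livers), and of 3 tested female-biased genes 2 were higher (over 8 listed, 1.35 to 112 against 5.95 to 32.8 CPM). The latter count was 0 without WT replicate 2 and 1 without WT replicate 3 or any 1 Hom liver. Elovl3, a male-biased fatty acid elongase, was at 230, 735 and 805 CPM in WT and at 0.513, 1.73 and 7.80 CPM in Hom livers. Without WT replicate 1 the log2 fold change of Cyp7b1 was −4.42 (adjusted p = 0.000232), without Hom replicate 1 it was −3.91 (0.0203), and without both it was −4.39 (0.000403), from edgeR. Cyp8b1 was at −4.43 (adjusted p = 0.000183) and Cyp7a1 at 1.91 (0.0136) without both livers. In that comparison, chosen after seeing the data, 8 of the 10 genes were lower, Akr1d1 (−0.34, adjusted p = 0.0217) being added.

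**Figure D5:**
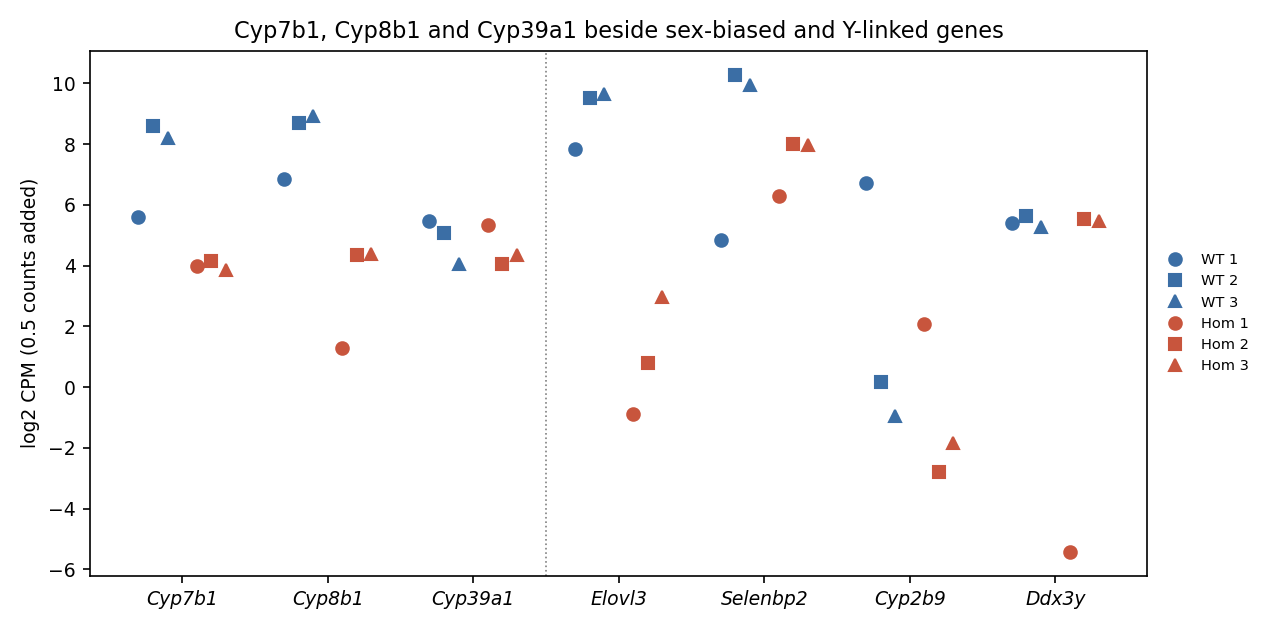
Log2 CPM (0.5 counts added) of Cyp7b1, Cyp8b1 and Cyp39a1 and, right of the dotted line, of male-biased Elovl3 and Selenbp2, female-biased Cyp2b9 and Y-linked Ddx3y in each liver. WT replicate 1 is the lowest WT liver for Cyp7b1, Cyp8b1, Elovl3 and Selenbp2 and the highest for Cyp2b9, and Hom replicate 1 alone lacks Ddx3y.

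Most other enzymes of the pathway were lower as well under TMM scaling. Of 11 tested genes that take part in bile acid synthesis or conjugation outside the 10, 9 were lower and none was higher (median log2 fold change −1.08). Over all tested genes 20.1% were lower and 21.5% higher. Sult2a8, a liver sulfotransferase of bile acids, had 7395, 10616 and 10317 counts in WT and 41, 325 and 386 counts in Hom livers (log2 fold change −5.75, adjusted p = 0.00181). Akr1c14, a hydroxysteroid dehydrogenase (−1.47, adjusted p = 0.0017), the peroxisomal importer Abcd3 (−1.26, 0.00179) and the acyl-CoA ligase Slc27a2 (−1.08, 0.00242) were also lower by the edgeR test. Cyp2c70, which makes the muricholic acids of mice, was at 0.37 (adjusted p = 0.267) and Acox2, a peroxisomal oxidase of the side chain, at −0.19 (0.377). With library size alone 7 of the 11 were lower and Cyp2c70 was higher. Relative to the hepatocyte markers 5 of the 11 were lower and Cyp2c70 was higher. Of 4 electron donors of the P450 enzymes, Cyb5a (−0.87, adjusted p = 0.00296), Fdx1 (−0.61, 0.00798) and Fdxr (−0.48, 0.0451) were lower by the edgeR test; Fdx1 and Fdxr hand electrons to CYP27A1 in mitochondria. The call of Fdxr was lost in 12 of 15 alternatives, among them upper-quartile factors, both filters and the removal of any single liver other than WT replicate 1. With library size alone only Cyb5a of these was lower (−0.40), and Por, the reductase that serves CYP7A1, was higher (0.82).

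Among 14 regulators of bile acid synthesis, 6 were lower and 1 was higher (median log2 fold change −0.36). Over all tested genes 20.1% were lower, 21.5% were higher and 41.7% were called in either direction. Regulators were thus called about as often as tested genes at large. Without Hom replicate 3, 3 regulators were lower, and without Hom replicate 2 or any other liver 4 to 6 were. Nr0b2, which encodes the repressor SHP and is induced through FXR, was at 71.3, 56.5 and 61.3 CPM in WT and at 24.2, 20.8 and 29.3 CPM in Hom livers. All 3 Hom livers lay below the lowest WT liver, and the log2 fold change was −1.35 (SE 0.15, edgeR-adjusted p = 0.00101). Nr1h4 itself was at −0.20 (adjusted p = 0.063), Fgfr4 at 0.081 (0.701), Klb at −0.41 (0.0589) and Nr5a2, an activator of Cyp7a1, at −0.24 (0.108). Hnf4a, a hepatocyte factor that activates Cyp7a1 and Cyp8b1, was lower (−0.69, adjusted p = 0.00745), as were Rora (−0.50, 0.0146) and Nr1i2 (−0.51, 0.0156). Prox1, a co-repressor of hepatocyte genes, was higher (1.12, adjusted p = 0.0135). With library size alone Nr0b2 (−0.90, adjusted p = 0.00581) was the single lower gene of the list and Prox1 (1.55), Fgfr4 (0.52) and Mafg (0.38) were among the higher ones, Hnf4a being at −0.23 (0.131), from edgeR. Rora (−0.045) and Nr1i2 (−0.065) were near 0 in that scaling.

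Of 10 tested bile acid transporters, 5 were lower and 2 higher, where 20.1% of all tested genes were lower and 21.5% higher. The count of higher transporters was thus near the share of all genes. With library size alone 2 transporters were lower and 2 higher, where 642 of 13805 genes were lower and 6574 higher. Without WT replicate 2 or without WT replicate 3, 3 transporters were lower and 1 was higher. Of the uptake carriers of the blood side 3 were lower, with log2 fold changes of −7.64 for Slco1a1, −1.54 for Slc10a1 and −1.03 for Slco1b2 (adjusted p = 0.000221, 0.000498 and 0.00798 from edgeR), while Slco1a4 was at 0.17 (0.692) with overlapping groups. Slc51b, a subunit of an exporter to the blood, had 12, 8 and 7 counts in WT and 208, 141 and 144 counts in Hom livers (log2 fold change 3.73, adjusted p = 0.000481). Abcc4, another exporter to the blood, was higher at 0.72 (adjusted p = 0.0412), and Abcb11, the pump into bile, was lower at −0.58 (0.0231) by the edgeR test. Abcc4 was no longer past the threshold in 6 of 15 alternatives, which were the gene length correction (adjusted p = 0.0628), the replicate block (0.0983), and the removal of WT replicate 2, WT replicate 3, Hom replicate 2 or Hom replicate 3. Abcb11 was at −0.11 (adjusted p = 0.606) and Slco1b2 at −0.55 (0.0688) with library size alone.

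The genes most like Cyp7a1 in log2 CPM over the 6 livers, among 8269 other genes with a mean of at least 10 CPM, were Adss (Pearson r = 0.997), Taf9 (0.994) and Tmem123 (0.990). Those most like Cyp7b1 were Auh (r = 1.000), Etfrf1 (0.999) and Lias (0.997). These values describe 6 livers that share their group difference, and log2 fold changes of the 6 genes were between −0.80 and 0.47.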

How the data were processed

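Total RNA of 6 frozen livers was extracted with Trizol and sequenced on DNBSEQ by BGI Genomics. Per the labels, the submitters' processing notes name HISAT2 2.0.4, Bowtie2 2.2.5, RSEM 1.2.12 and mm9; annotation and strand setting are not given in the sources used here. The authors deposited estimated counts, FPKM and TPM per liver and group means of each. Mean columns carry crossed group names in all 17975 genes (equal within 0.01 to the mean of the other group) and were not used.

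Estimated counts, of which 65.9% were exactly whole as deposited, were rounded and tested with edgeR 4.0.16 under R 4.3.3 (filterByExpr, TMM, glmQLFit, glmQLFTest; Benjamini-Hochberg over 13805 genes, threshold 0.05, no minimum fold change). Standard errors came from the fold change and F statistic. The deposited TPM served for levels between genes, and FPKM for gene length. Gene positions are from GENCODE M21. Intervals and p-values cover the spread between 3 mice per group. Libraries of a group were not duplicates, since their counts differed by a chi-square of at least 22.3 times its degrees of freedom.

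The genes and lists were chosen with earlier results of these data known. Named beside the 10 genes were, of each list, up to 4 genes with the smallest adjusted p per direction, 6 feedback regulators, sex-linked and sex-biased genes per liver, and the 3 genes most like Cyp7a1 and Cyp7b1. Cyp2c70, Acox2, Por and Mafg were named after their values were seen. Alternatives were DESeq2 1.42.0, other scalings and filters, a loess correction for gene length (available for 94.8% of genes), a replicate block, and each liver left out. In simulated data (13162 genes), 58.2% of genes changed by 1 on the log2 scale and 96.9% of those changed by 2 were called, with 0.069% of unchanged genes. All simulated livers were drawn from the WT proportions, and few tested genes were changed (98 by 1 and 96 by 2). Changes were planted evenly up and down. In the real comparison 41.7% of tested genes were called, so these rates were not shown to hold for it.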

Additional observations from a re-analysis of the deposited data

How the results depend on the processing

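Across 15 alternatives, Cyp7a1 stayed higher and Cyp8b1, Cyp7b1, Hsd3b7 and Slc27a5 stayed lower past the threshold in each, with log2 fold changes of 1.88 to 2.68, −4.94 to −3.89, −4.42 to −3.35, −1.49 to −0.82 and −1.12 to −0.51. Amacr was no longer past the threshold in 8 of them, among them the gene length correction (−0.35, adjusted p = 0.0843). Relative to hepatocyte markers 4 of the 10 genes were lower, with 407 genes lower and 6934 higher in all; there Akr1d1 (0.37), Cyp39a1 (0.22), Baat (0.060) and Amacr (0.053) changed sign. With library size alone (642 lower, 6574 higher) Akr1d1 (0.27) and Cyp39a1 (0.11) changed sign. Both scalings shift genes by similar but not equal amounts, because factors also differ between livers of a group. With library size alone Cyp39a1 went from −0.30 to 0.11 and Cyp8b1 from −4.53 to −4.00. Requiring a change of 1 or more on the log2 scale, 5 of the 10 genes were lower and 1 higher, with 575 genes lower and 1825 higher in all. Leaving out 1 liver at a time gave 1767 to 2750 lower and 1986 to 3057 higher genes, 6 to 7 of the 10 lower and 1 higher; Cyp39a1 ranged from −0.76 to 0.027, the latter without WT replicate 1. Without WT replicate 1 and Hom replicate 1, a comparison chosen after seeing the data, 8 of the 10 genes were lower, with 2871 genes lower and 3339 higher in all.

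With the replicate number as a block, 6 of the 10 genes were lower and 1 higher, with 2214 genes lower and 2383 higher in all, and Amacr was no longer past the threshold (adjusted p = 0.0571). Same-numbered livers come from different mice and did not deviate together (correlations of −0.109, −0.0638 and −0.0643), and no liver correlated best with its own number. Depth limits few of the 10 genes, the lowest count being 52, for Cyp8b1 in Hom replicate 1.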
